A study of Mus musculus with 132 samples.

Results

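The 8 genes of the subcortical maternal complex listed here were followed through mouse preimplantation development: Nlrp5, Ooep, Tle6, Khdc3, Padi6, Zbed3, Nlrp4f and Nlrp2. They were chosen by gene symbol, and all 8 were present among the 32245 genes of the expression table. The subcortical maternal complex is a protein assembly laid down in the growing oocyte and kept under the cell membrane of the egg and early embryo. Its mRNAs are made by the mother, females that lack a core subunit produce embryos that stop dividing early, and the proteins are known to outlast their mRNAs. The genes are therefore usually treated as 1 maternal set, whose transcripts are cleared once the embryo transcribes its own genome.

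All cells came from C57BL/6 x DBA F1 matings. Embryos were collected with 2 cells and cultured with a synthetic mimic of the microRNA miR-381-3p, or with a scrambled control mimic, at 5 or 10 µM. They were dissociated with 8 cells, on embryonic day 2.5, or with 32 cells, on day 3.5, using 3 to 5 embryos for each group, and polyadenylated RNA was read with Smart-seq2. This gave 30 control and 24 mimic cells at the 8-cell stage, and 39 cells under either treatment at the 32-cell stage. The labels give neither the dose nor the embryo of a cell, and the study's text ties a different dose to each stage, so dose and stage cannot be told apart in mimic cells. Each group is therefore 1 sample, and no difference between groups could be tested against the spread between embryos. Intervals below are exact Poisson or exact binomial 95% intervals. Poisson intervals cover the counting error of reads only. The reads carry no molecular identifiers, so copies of 1 molecule are counted separately and these intervals are too narrow. Binomial intervals treat the cells as independent draws, although cells share embryos.

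Total counts were 544866 to 3461022 per cell, and 3243 to 8983 genes had a count. In the 8-cell mimic group 3 cells stood apart with 3243 to 4881 genes, against at least 5963 in the others. The stage goes with a suffix in the cell titles, so a batch that the suffix may mark cannot be told apart from stage. Within a group the cell numbers fall into runs, called so below, and the second control run of the 32-cell stage follows on from the second mimic run and into the third. These 15 control and 21 mimic cells of adjoining numbers were also compared alone. What the numbers mark is not given in the sources used here. All 39 32-cell control cells had more Y-linked counts than Xist counts, and 0 of the 39 32-cell mimic cells did, so every difference between mimic and control at the 32-cell stage is also one between these cells. Of 8 granulosa and cumulus markers, 6 to 7 were at 0 in each group, and their summed level was 0 to 14.4 CPM (counts scaled to a library of 1000000, without mitochondrial genes) in any cell. Of 9 markers of unrelated tissues, 3 to 7 were at 0.

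The sequences that the treatment and the promoters bring to these genes are shown first. The mimic copies mature miR-381-3p (RefSeq, GRCm38.p6, chr12:109726870-109726891, plus strand), whose seed, the bases that pair with a target, is in capitals.
miR-381-3p: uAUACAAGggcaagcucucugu
Transcripts of the 8 genes in GENCODE M21 on the same build were searched for the 7-base sites CTTGTAT and TTGTATA and the 8-base site CTTGTATA. None of them held a site in an annotated 3′ UTR. The only match was an 8-base site in the 5′ UTR of 3 of the 8 annotated Nlrp4f transcripts (chr13:65205892-65205899, minus strand), shown in capitals with its surroundings. The site lies upstream of the RefSeq start of the gene.
Nlrp4f site: gcttcttttctCTTGTATAcatttatttgc
The 250 bases before the RefSeq start of each gene were searched on both strands for the E-box CAGGTG, the homeobox element TAATTG, the octamer ATGCAAAT, the TEAD element GGAATG and the TATA box TATAAA. For Khdc3, Nlrp4f, Tle6 and Ooep that start lies 562, 261, 173 and 137 bases inside the gene as GENCODE M21 places it. Their windows thus lie wholly or partly within the annotated gene. The E-box CAGGTG was found in 3 of the 8 windows (Khdc3, Padi6 and Zbed3) and in 17.2% of 32851 promoters. TAATTG was found in Ooep alone and in 7.17% of promoters, and GGAATG in Nlrp2 alone and in 12.6%. TATAAA (12.4% of promoters) and ATGCAAAT (1.60%) were found in none of the 8. The wider E-box pattern CANNTG, which CAGGTG also fits, was in every window but that of Nlrp2, and in 66.2% of all promoters. A match is a match of letters and no evidence that a factor binds. The stretches below are the exon-free bases of these windows nearest to the start, with the match in capitals, from 2 genes that were lower and 2 that were higher at the 32-cell stage.
Padi6 (chr4:140742644-140742893, minus strand): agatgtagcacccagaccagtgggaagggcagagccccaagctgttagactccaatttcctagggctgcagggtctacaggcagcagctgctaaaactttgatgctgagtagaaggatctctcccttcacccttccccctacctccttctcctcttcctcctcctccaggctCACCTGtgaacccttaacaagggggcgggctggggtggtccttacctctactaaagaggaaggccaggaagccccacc
Zbed3 (chr13:95323355-95323604, plus strand): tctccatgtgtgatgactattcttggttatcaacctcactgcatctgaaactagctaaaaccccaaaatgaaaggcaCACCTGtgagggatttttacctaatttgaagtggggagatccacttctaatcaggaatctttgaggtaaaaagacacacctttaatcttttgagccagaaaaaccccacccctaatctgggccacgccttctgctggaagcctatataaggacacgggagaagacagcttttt
Khdc3 (chr9:73102205-73102397, plus strand): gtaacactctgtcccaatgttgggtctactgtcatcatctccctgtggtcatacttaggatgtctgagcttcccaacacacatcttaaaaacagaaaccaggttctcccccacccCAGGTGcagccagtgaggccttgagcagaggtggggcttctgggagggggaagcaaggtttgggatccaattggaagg
Ooep (chr9:78378726-78378838, minus strand): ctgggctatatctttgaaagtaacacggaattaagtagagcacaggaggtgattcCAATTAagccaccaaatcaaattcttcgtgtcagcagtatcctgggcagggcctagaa
Of Ooep, the 137 bases between the printed stretch and the RefSeq start are annotated as exon and were left out. The E-box stood in promoters of genes with either direction of stage difference.

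The 8 genes did not move as 1 set between the stages. In control cells Padi6, Nlrp5, Zbed3, Tle6 and Nlrp2 were lower at the 32-cell than at the 8-cell stage, and Khdc3, Ooep and Nlrp4f were higher. The same 5 were below and the same 3 above the 8-cell level in mimic cells, where Nlrp4f and Nlrp2 differed by less than 1 on the log2 scale. Log2 changes compare log2(CPM + 1) after the counts of each group were pooled, and a gene is called when it has at least 20 CPM in 1 of the 2 groups and a change of 1 or more either way. Of the 4 genes that reached 20 CPM in control cells, Padi6 and Zbed3 were called lower, as were 20.1% of all 7469 genes at that level, and Khdc3 and Nlrp4f higher, as were 30% of them. In mimic cells Tle6, Padi6 and Zbed3 were called lower and Khdc3 higher, against 18.8% and 29.1% of 7594 genes. Tle6 was under 20 CPM there, and not called, without the 3 cells of few genes. Nlrp5, Ooep and Nlrp2 were under 20 CPM in all 4 groups and took no part in these counts. Over all genes with 20 CPM the median change was 0.20 in each treatment. Over the 4 genes of the complex at that level, which are not the same 4 in both treatments, it was -0.30 in control and -2.78 in mimic. Over all 8 with no limit on the level it was -1.91 and -1.52, so a single median describes them poorly.

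**Figure D1:**
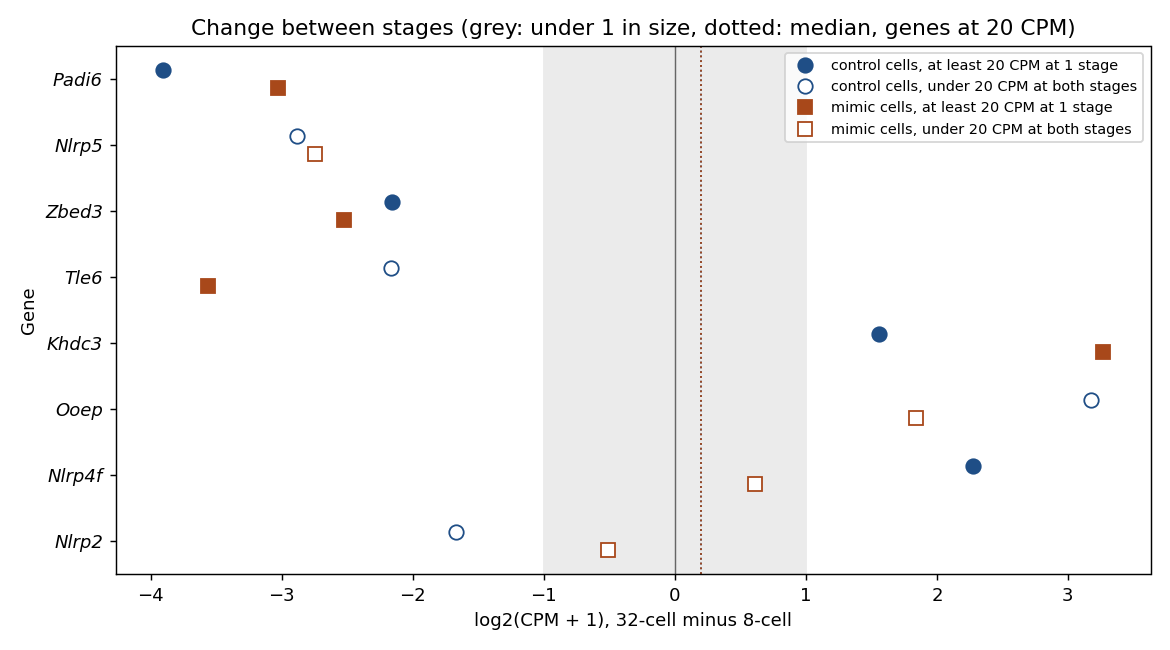
Change of each gene from the 8-cell to the 32-cell stage, as the difference of log2(CPM + 1) of pooled counts, in control cells (circles) and mimic cells (squares); filled symbols mark genes with at least 20 CPM at 1 stage. Padi6 (-3.91 in control, -3.03 in mimic) and Khdc3 (1.56 and 3.27) lie on opposite sides of 0 in both treatments.

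Padi6, a member of the peptidylarginine deiminase family without which the cytoplasmic lattices of the egg do not form, was called lower in both treatments (chr4:140727355-140742643, minus strand). It was at 0, 55.5 and 134 CPM in the lowest, median and highest of the 8-cell control cells, and at 0, 0 and 38.8 CPM in the 32-cell control cells. The ranges overlapped at the low end, but the median cell had the transcript at one stage and not at the other. Pooled, that was 56.8 CPM (95% interval 54.4 to 59.3) against 2.85 CPM (2.43 to 3.32), a log2 change of -3.91. The change was -4.45 without the 32-cell cell that held 43.8% of that group's counts, and -5.69 without the second 32-cell run. The lowest, median and highest mimic cells held 0, 23.7 and 244 CPM at the 8-cell stage and 0, 0 and 91.2 CPM at the 32-cell stage. The pooled change there was -3.03, from 49.7 to 5.22 CPM. A count for Padi6 was found in 24 of 30 and 19 of 24 8-cell cells, and in 4 of 39 and 6 of 39 32-cell cells, control and mimic in that order.

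Zbed3, a zinc finger protein of the complex linked to symmetric division of the zygote (chr13:95323612-95337841, plus strand), kept a count in more 32-cell cells than Padi6. The lowest, median and highest 8-cell control cells held 0, 21.3 and 84.2 CPM, and the 32-cell control cells 0, 0 and 48.7 CPM. The pooled level was 25.5 CPM (23.9 to 27.2) at the 8-cell and 4.94 CPM (4.38 to 5.55) at the 32-cell stage, a log2 change of -2.16. In mimic cells the pooled level went from 29.7 to 4.32 CPM, a change of -2.53. Zbed3 still had a count in 12 of 39 control and 14 of 39 mimic 32-cell cells, more than any other of the 5 lower genes.

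Nlrp5, also called Mater, is the large NOD-like receptor protein around which the complex is built (chr7:23385889-23441922, plus strand). Its transcript was already sparse at the 8-cell stage, with a count in 12 of 30 control and 6 of 24 mimic cells. In 8-cell control cells 43.7% of all its counts came from 1 cell at 139.2 CPM, and the median cell was at 0. Pooled Nlrp5 was 8.47 CPM (7.55 to 9.46) in 8-cell control and 0.281 CPM (0.161 to 0.457) in 32-cell control cells. In mimic cells it was 7.08 and 0.207 CPM, a change of -2.74. There 63.5% of the 8-cell counts came from 1 cell, without which the change was -1.61, and in control it was -2.20 without its highest cell. Only 3 of 39 and 2 of 39 32-cell cells had a count.

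Tle6, a Groucho-family protein that binds the core of the complex (chr10:81590904-81601073, minus strand), had a count in 11 of 30 and 11 of 24 8-cell cells and in 3 of 39 cells of each 32-cell group. Pooled, it was 9.23 CPM (8.27 to 10.3) and 1.28 CPM (1.01 to 1.61) in control cells at the 8-cell and 32-cell stage. In mimic cells it was 24.3 CPM (22.6 to 26.1) and 1.15 CPM (0.876 to 1.47). Nlrp2, a second NOD-like receptor (chr7:5298547-5351035, minus strand), had counts in 1 cell of each 8-cell group. These cells held 64.9 and 6.49 CPM. None of the 78 32-cell cells had a count. The exact Poisson upper limits were 0.0648 CPM in the control group and 0.0693 CPM in the mimic group. Pooled Nlrp2 at the 8-cell stage was 2.18 CPM (1.73 to 2.71) in control and 0.421 CPM (0.224 to 0.719) in mimic cells. The log2 changes were -1.67 in control and -0.51 in mimic. Each was 0 without the 1 8-cell cell that held the counts, so the lower level of Nlrp2 rests on 1 cell in each treatment.

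Khdc3, also called Filia, is a KH-domain protein that helps to keep the chromosomes of the early embryo intact (chr9:73101836-73104438, plus strand). It was the highest of the 8 genes per kilobase in every group, at 48.5, 26.8, 144.3 and 264 pooled CPM per kilobase of its longest coding transcript in 8-cell control, 8-cell mimic, 32-cell control and 32-cell mimic cells. The lowest, median and highest cells were at 0, 57.8 and 300 CPM in 8-cell control and at 78.5, 221 and 620 CPM in 32-cell control. The lowest 32-cell control cell was thus above the median 8-cell control cell, although the ranges overlapped. Pooled Khdc3 went from 81.6 CPM (78.7 to 84.6) to 243 CPM (239 to 247), a log2 change of 1.56. In mimic cells it went from 45.1 CPM (42.7 to 47.5) to 444 CPM (438 to 449), a change of 3.27. All 78 32-cell cells had Khdc3 counts. The annotation places a longer transcript, Gm20509, over Khdc3 on the same strand, and 42.8% of the 50-base windows of Khdc3 are also found in it. Gm20509 has no row in the expression table, and how its reads were assigned was not tested.

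Ooep, also called Floped, is a small KH-domain protein of the core complex (chr9:78376109-78378725, minus strand). Its transcript was close to absent at the 8-cell stage and present in most 32-cell cells. It had a count in 5 of 30 and 5 of 24 8-cell cells (16.7% and 20.8%), and in 30 of 39 control (76.9%, 95% interval 60.7 to 88.9) and 26 of 39 mimic 32-cell cells (66.7%, 49.8 to 80.9). The lowest, median and highest 32-cell control cells were at 0, 13.3 and 104.4 CPM, against 0, 0 and 13.8 CPM in 8-cell control cells. Pooled Ooep was 1.12 CPM (0.801 to 1.51) at the 8-cell and 18.2 CPM (17.1 to 19.3) at the 32-cell stage in control cells, a log2 change of 3.18. In mimic cells it was 2.69 and 12.2 CPM, a change of 1.84. Its level stayed under the 20 CPM limit, so it was not called.

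Nlrp4f, an oocyte-enriched NOD-like receptor that binds the complex (chr13:65177111-65205977, minus strand), was high in some cells and absent in others. In 32-cell control cells it had a count in 23 of 39, with 0, 9.23 and 218 CPM in the lowest, median and highest cell. In 8-cell control cells it had a count in 6 of 30, with 0, 0 and 100 CPM. The pooled levels were 57.4 CPM (55.5 to 59.4) and 11.1 CPM (10.0 to 12.2), a log2 change of 2.28. It was 3.22 without the 8-cell cell that held 55.2% of that stage's counts, and 1.57 without the first 32-cell run. In mimic cells the change was 0.61, from 10.6 to 16.7 CPM, and it was -0.01 without the 32-cell cell that held 38.9% of the mimic counts.

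**Figure D2:**
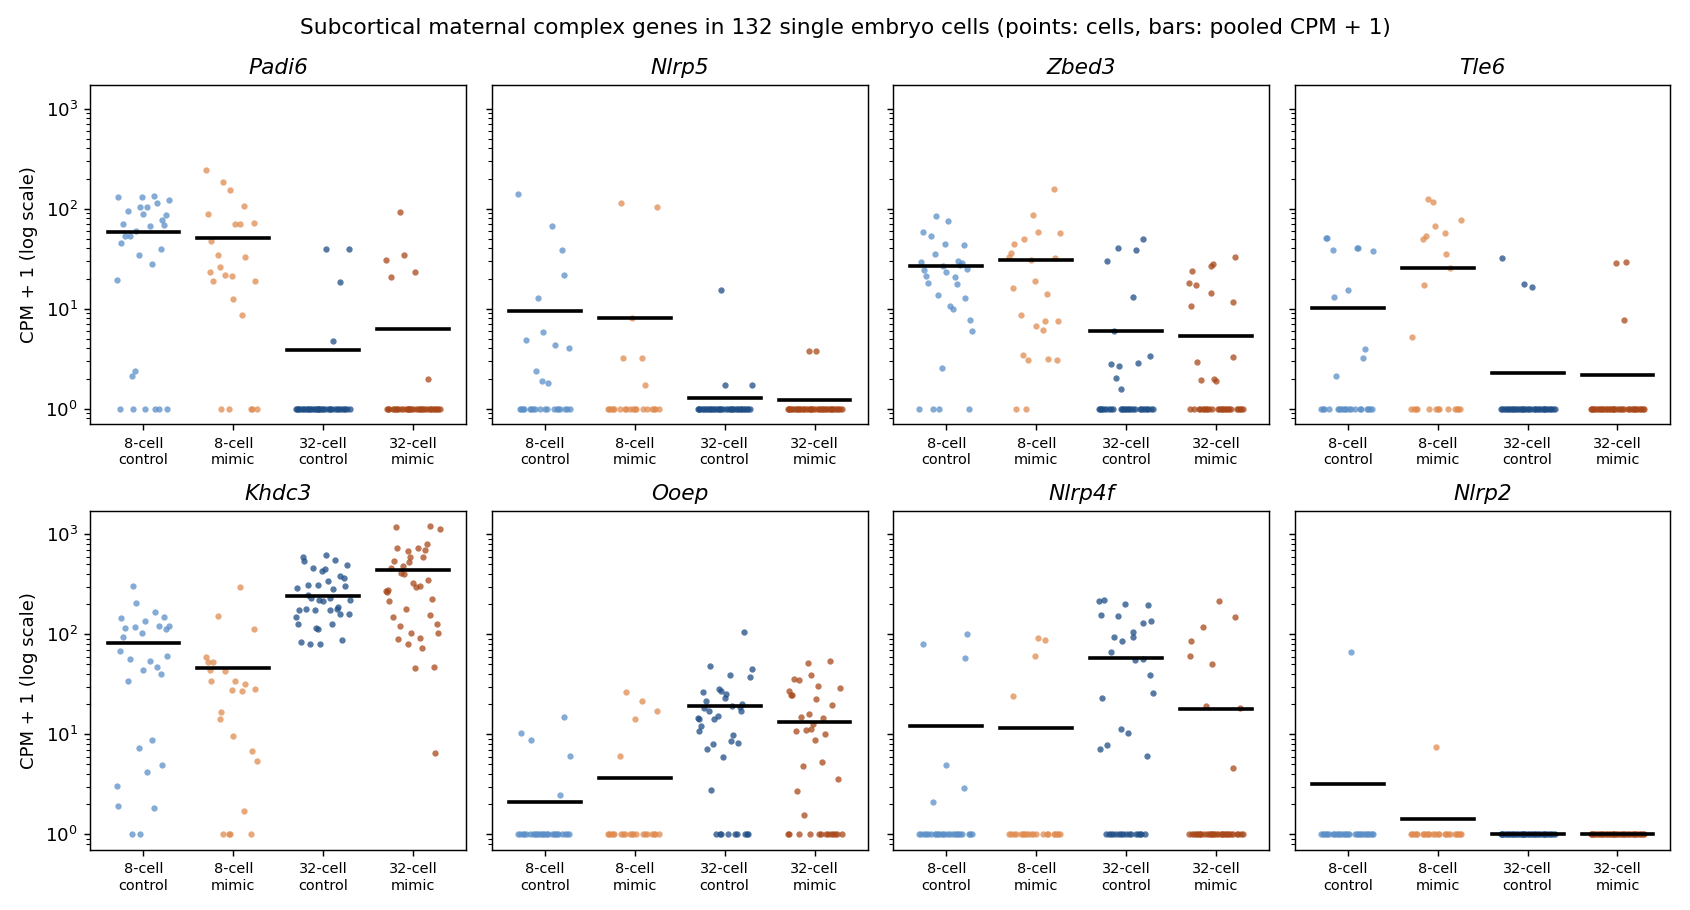
Level of each gene in every cell, as CPM + 1 on a log axis, for the 4 groups; each point is 1 cell and each black bar the pooled CPM + 1 of its group. Most 32-cell cells lie on the baseline for Padi6 and Nlrp5, while Khdc3 is above the baseline in all 78 of them.

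**Figure D3:**
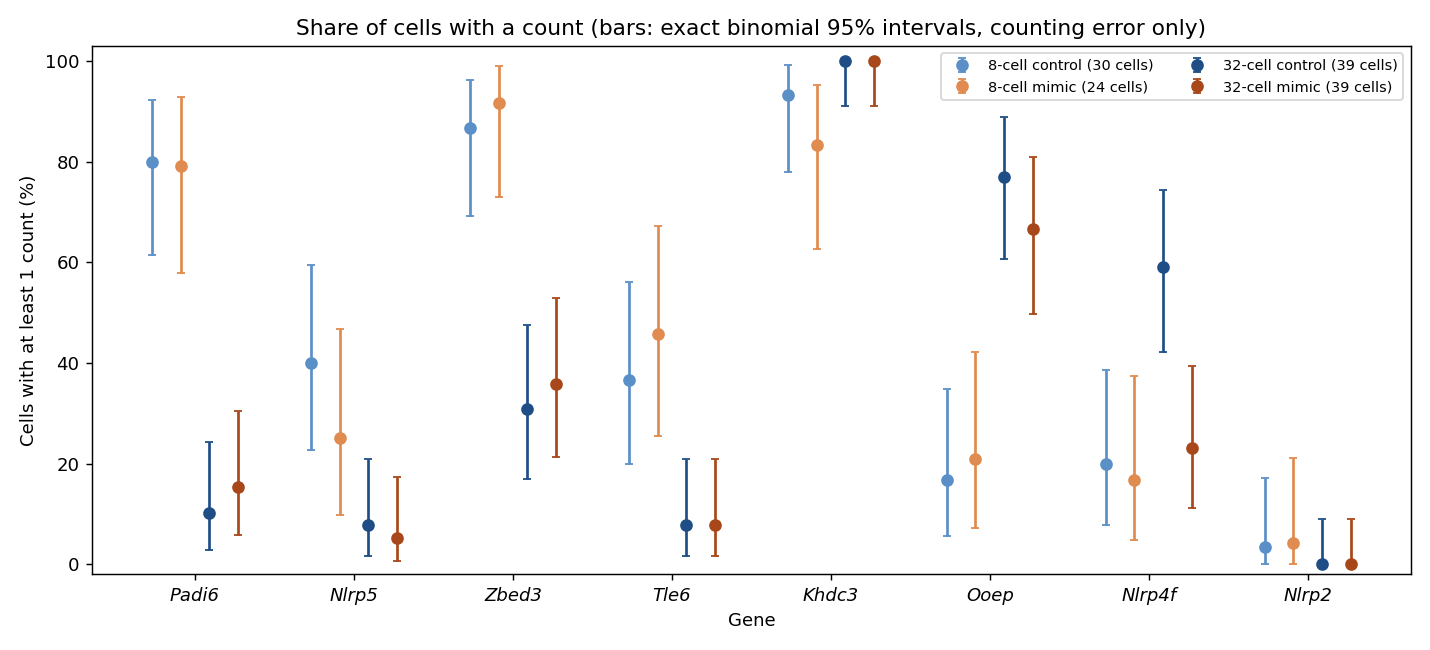
Share of cells with at least 1 count for each gene, in percent, with exact binomial 95% intervals that treat cells as independent draws and leave out the spread between embryos. Padi6 goes from 80% to 10.3% of control cells between the stages, and Ooep from 16.7% to 76.9%.

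Thinning to equal depth moved these shares little: after each cell was thinned to 500000 counts, no group's number of cells with a count differed by more than 2 for any of the genes. Summed over the 8 genes, the median cell held 187 CPM in 8-cell control, 150 in 8-cell mimic, 347 in 32-cell control and 399 CPM in 32-cell mimic. The sum was thus higher at the 32-cell stage, but its make-up differed. Khdc3 gave 41.6% of the pooled sum in 8-cell control and 26.6% in 8-cell mimic, against 74.1% and 91.8% at the 32-cell stage. The 5 lower genes together gave 102.2, 111.2, 9.35 and 10.9 CPM in 8-cell control, 8-cell mimic, 32-cell control and 32-cell mimic, and the 3 higher genes 93.8, 58.4, 318 and 473 CPM. The genes were split by their own stage change, so the split set the direction of these sums.

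The order of the 8 genes per kilobase differed between the stages as well. In 8-cell control cells Padi6 (24.4 CPM per kilobase), Zbed3 (13.1), Tle6 (4.58) and Nlrp4f (3.11) followed Khdc3, and Ooep (0.522) and Nlrp2 (0.640) came last with overlapping counting intervals. In 32-cell control cells Nlrp4f (16.2) and Ooep (8.50) followed Khdc3, ahead of Zbed3 (2.54), Padi6 (1.22), Tle6 (0.637) and Nlrp5 (0.0802). The counting intervals of neighbours in that second order did not overlap, but the order was not the same in both runs. Zbed3 was at 6.67 CPM and Padi6 at 0.118 CPM in the first 32-cell control run. In the second they were at 2.36 and 6.91 CPM.

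Every 8-cell cell had a count for at least 1 of Padi6, Nlrp5, Tle6 and Zbed3, and 16 of 30 control and 10 of 24 mimic cells had 3 or 4 of them. At the 32-cell stage 19 of 39 control and 18 of 39 mimic cells had none, and 2 and 4 cells had 2 of them. No 32-cell cell had more than 2. What remained in 32-cell control cells was unevenly placed over the first and second run. Padi6 was 0.118 and 6.91 CPM there, Tle6 0 and 3.19 CPM and Nlrp5 0.0294 and 0.656 CPM, while Zbed3 was 6.67 and 2.36 CPM. In mimic cells all Tle6 counts were in the first run, at 3.01 CPM. Across cells of 1 stage the genes varied with little relation to each other. Spearman's rho between pairs of them ran from -0.27 to 0.20 over the 54 8-cell cells (28 pairs) and from -0.17 to 0.25 over the 78 32-cell cells (21 pairs). Cells share embryos and many values are 0, so these are descriptions.

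The genes whose levels across the cells of all groups most resembled each of the 5 genes that reached 20 CPM are given next. The measure was Pearson's r of log2(CPM + 1) among 8081 genes. Cells of both stages entered together, so r also carries the difference between the stages. Padi6 was most like Hand1 (r = 0.70), Anpep (0.67) and Btbd18 (0.67), and Zbed3 most like Obox8 (0.63), Trim43b (0.61) and Anpep (0.60). Khdc3 was most like the glycolytic enzyme gene Pkm (0.67), Ogdhl (0.67) and the mitochondrial carrier gene Slc25a11 (0.66). Pooled Pkm was 8.90 CPM in 8-cell control and 613 CPM in 32-cell control cells, and pooled Hand1 was 265 and 1.48 CPM. Tle6 was most like Snrpc (0.43), Exd1 (0.42) and Lactb (0.41). Nlrp4f was most like Zfp563 (0.42), the Y-linked gene Uty (0.42) and Kdf1 (0.40). Uty was 8.52 and 38.8 CPM in control cells at the 8-cell and 32-cell stage, and 0.0324 and 0.0188 CPM in mimic cells. Within the 54 8-cell cells alone none of these pairings came back among the closest 3, where Khdc3 was most like Pxmp2 (0.58), Padi6 like Exosc9 (0.53), Zbed3 like Hmgb2 (0.50), Tle6 like Dcakd (0.52) and Nlrp4f like Abcb8 (0.53).

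Mimic and control cells were compared next, to ask whether miR-381-3p altered these transcripts. At the 8-cell stage 1 of the 4 genes with 20 CPM, Tle6, was called, against 13% of 6570 genes in either direction. It was at 0, 0 and 125 CPM in the lowest, median and highest mimic cell, and at 0, 0 and 50.3 CPM in control. The pooled 24.3 and 9.23 CPM gave a log2 change of 1.31. The shares of cells with a count, 45.8% (95% interval 25.6 to 67.2) and 36.7% (19.9 to 56.1), overlapped. The change was 0.88, and not called, without the 3 mimic cells of few genes, and it was -2.24 over the 16 control and 3 mimic cells with Xist and no Y-linked counts. Over the 7 control and 8 mimic cells with Y-linked counts above Xist it was 1.53. Khdc3 was lower in mimic by 0.84 (45.1 against 81.6 CPM). Its change was -1.26 without the mimic cell that held 28.9% of the counts, and -0.65 without the 3 mimic cells of few genes. In cells with Xist alone it was -1.56, and in cells with Y-linked counts above Xist -1.37. Padi6, Zbed3 and Nlrp5 differed by -0.19, 0.21 and -0.23. In cells with Xist alone the 3 values were 0.53, 0.55 and -3.10, and in cells with more Y-linked than Xist counts they were -0.48, -0.84 and 1.95, so each took both signs. Single mimic cells weighed on them too: Zbed3 was at -0.19 without one, Nlrp5 at -1.36 without the cell that held 63.5% of its counts, and Padi6 at -0.43 without another. Nlrp4f differed by -0.05, and by 0.89 without the control cell that held 55.2% of its counts. Among cells with Xist alone it differed by -2.08 (a count in 0 of 3 mimic cells), and among those with more Y-linked than Xist counts by -1.44 (1 of 8). Ooep, with a count in 5 cells of each group, differed by 0.80, by 0.43 without 1 mimic cell, by -0.89 in cells with Xist alone and by 1.26 in those with more Y-linked counts.

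At the 32-cell stage the 2 genes with 20 CPM went opposite ways, and 1 of them was called, against 12.2% of 7307 genes. Nlrp4f was lower in mimic cells, where the lowest, median and highest cell held 0, 0 and 214 CPM, against 0, 9.23 and 218 CPM in control. The highest cells of both groups were close, and fewer mimic cells had the transcript, 9 of 39 (23.1%, 95% interval 11.1 to 39.3) against 23 of 39 control cells (59.0%, 42.1 to 74.4). Pooled, it was 16.7 CPM (15.7 to 17.9) against 57.4 CPM, a log2 change of -1.72. By run it was 72.6 and 34.7 CPM in control and 17.7, 23.7 and 8.01 CPM in mimic, so the runs did not overlap. In the cells of adjoining numbers it was 34.7 CPM in control and 16.1 CPM in mimic, a change of -1.06, with a count in 9 of 15 and 6 of 21. Over all alternatives the change ran from -3.35 to -1.01. The seed site printed above lies in the 5′ UTR of 3 of the 8 annotated transcripts of this gene, and whether the mimic acted on it was not tested. At the 8-cell stage, where its change was -0.05, Nlrp4f was 31.5 CPM in 7 control cells with Y-linked counts above Xist, of which 3 had a count, and 13.8 CPM without the highest of them. It was 3.24 CPM in 16 control cells with Xist alone, of which 2 had a count, and 0.168 CPM without the highest.

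Khdc3 was higher in 32-cell mimic cells, at 5.59, 298 and 1209 CPM in the lowest, median and highest cell against 78.5, 221 and 620 CPM in control. The mimic cells thus spread further both ways. The pooled change of 0.87 was under the limit for a call, and with the mean of log2 values over cells it was 0.15. It was 0.26 without the last mimic run of 9 cells, at 805 CPM, while the other mimic runs were at 246 and 344 CPM and the control runs at 219 and 277 CPM. It passed the limit without the first mimic run (1.22), the second (1.02) or the second control run (1.01), and in the cells of adjoining numbers (1.02). Ooep was lower by 0.54 in mimic cells (12.2 against 18.2 CPM), with runs at 10.3, 17.9 and 8.52 CPM against 17.4 and 19.4. Padi6 was higher by 0.69 (5.22 against 2.85 CPM), on 6 and 4 cells, with runs from 0 to 9.29 CPM. In the cells of adjoining numbers the difference was -1.09, and it was 2.48 without the second control run. Nlrp5, Tle6 and Zbed3 differed by -0.09, -0.09 and -0.16, with no stable sign. Without 1 control cell each they were at 0.22, 0.43 and 0.33. Without 1 control run Tle6 was at 1.10 and Zbed3 at 0.66, and in the cells of adjoining numbers Tle6 was at -2.07.

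**Figure D4:**
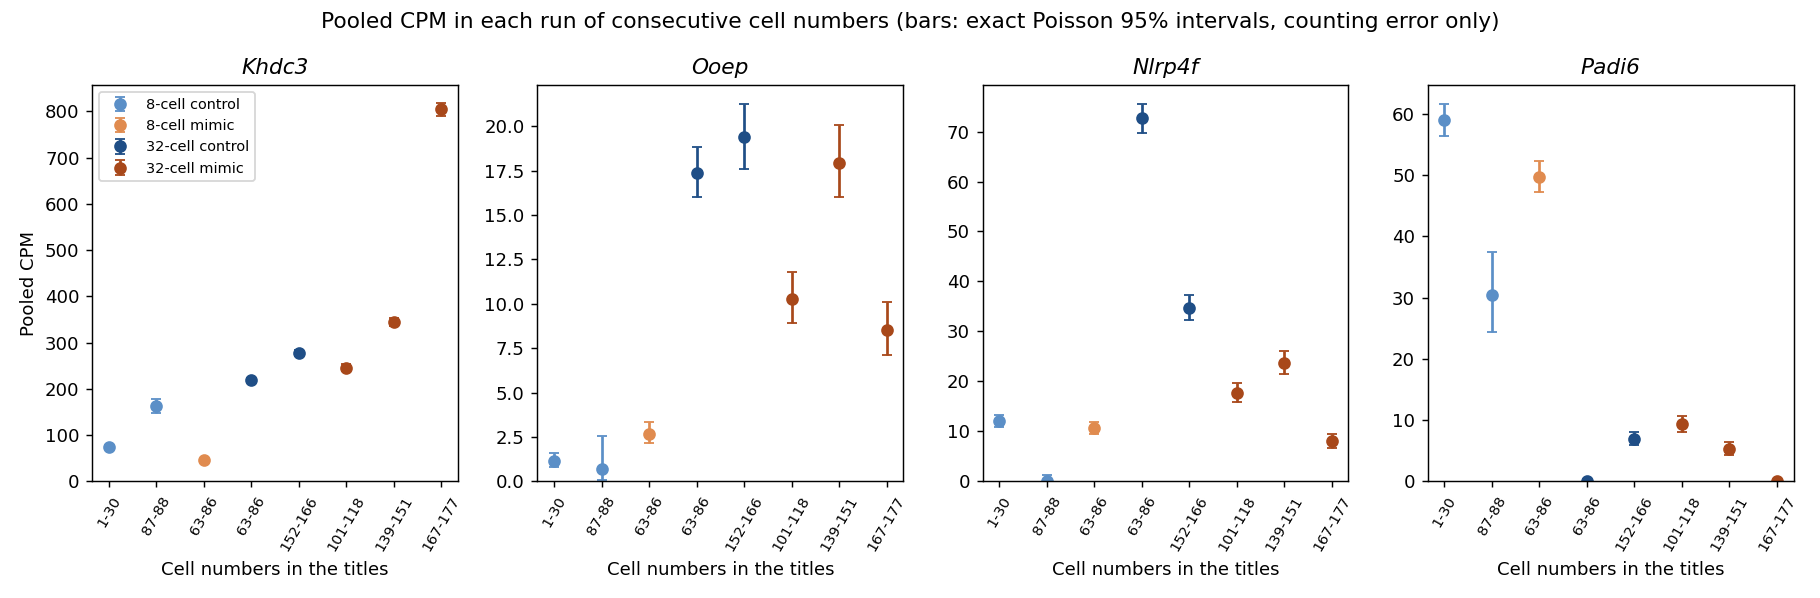
Pooled CPM of Khdc3, Ooep, Nlrp4f and Padi6 in each run of cell numbers within a group, coloured by group, with exact Poisson 95% intervals that cover counting error only. For Nlrp4f the 2 control runs of the 32-cell stage (72.6 and 34.7 CPM) lie above all 3 mimic runs, while for Khdc3 the mimic runs span 246 to 805 CPM.

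Cells of the 32-cell embryo are about to form, or have formed, the inner cell mass (ICM) and the trophectoderm (TE). The 78 cells fell into 2 clusters, formed without the 8 genes. All 9 ICM markers were higher in one and all 9 TE markers in the other, which are called ICM-like and TE-like. The markers were compared over control and mimic cells together, and not within mimic cells alone. The ICM-like and TE-like clusters held 25 and 14 control cells and 9 and 30 mimic cells, so the mix of treatments differed between them. Of the top 10 genes of each cluster by fold, 2 were ICM markers in the ICM-like one and 0 were TE markers in the TE-like one.

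Khdc3 was on the ICM-like side in control embryos and on the TE-like side in mimic embryos. In control it was 296 CPM (95% interval 289.9 to 302) in ICM-like and 171.3 CPM (166.2 to 176.6) in TE-like cells, with medians of 300.3 and 143.6 CPM, a log2 difference of 0.78. In mimic it was 181.5 CPM (173.7 to 189.6) and 514 CPM (507 to 521), with medians of 122 and 406 CPM, a difference of -1.496, which was -0.88 and not a call without the 8 TE-like cells of the last mimic run. The ranges of cells overlapped in both. The order was the same within each run. It was 286 against 124 CPM and 312 against 235 CPM in the control runs, and 151.04 against 288, 156.1 against 381 and 300.3 against 886 CPM in the mimic runs, the last of which held 1 ICM-like cell. When cells were placed by marker score in place of clusters, which made 17 mimic cells ICM-like, the mimic difference was -0.35, and with clusters from all genes it was -0.90. The control difference was 0.78 under both.

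**Figure D5:**
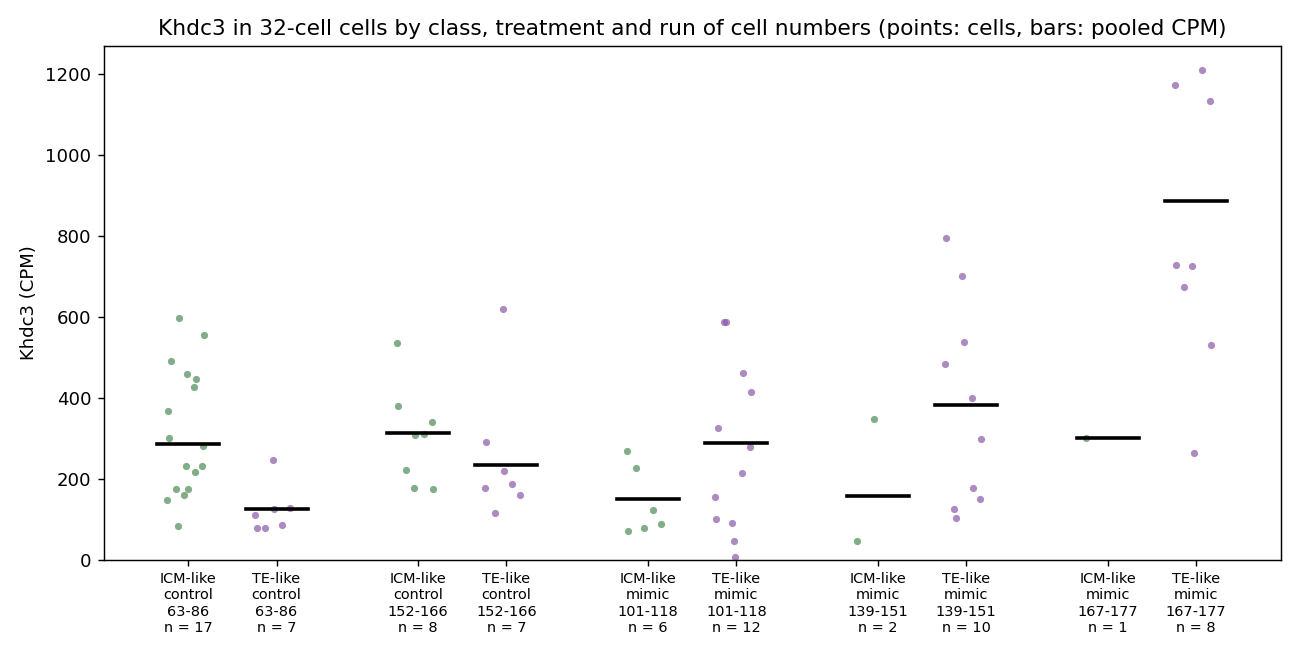
Khdc3 in every 32-cell cell, in CPM, by class, treatment and run of cell numbers; each point is 1 cell and each black bar a pooled CPM. ICM-like bars are above TE-like bars in both control runs (286 against 124 and 312 against 235 CPM) and below them in all 3 mimic runs.

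Nlrp4f was higher in ICM-like than in TE-like cells in control, at 72.0 against 37.9 CPM, with a count in 18 of 25 and 5 of 14 cells. The log2 difference of 0.91 was under the limit, and it was 1.86 and 1.24 without either of 2 TE-like cells, and -0.06 without the 17 ICM-like cells of the first control run. In mimic it was 24.0 against 14.8 CPM, with a count in 2 of 9 and 7 of 30 cells. That difference of 0.66 ranged from -0.22 to 1.68 when 1 cell was left out, with 1.68 reached without the TE-like cell that held 55.8% of the counts there, and it was 1.07 or 1.504 without the ICM-like or the TE-like cells of the second mimic run. Ooep was 15.4 CPM in ICM-like and 21.9 CPM in TE-like control cells, a difference of -0.49, and 10.9 and 12.6 CPM in mimic, a difference of -0.20. The control value was 0.09 without the TE-like cell that held 40.1% of the counts there, and the mimic value -0.86 without 1 ICM-like cell, so no order of the classes held. Zbed3, which was under 20 CPM in every class, was 8.48 CPM in ICM-like and 0.205 CPM in TE-like control cells, with a count in 10 of 25 and 2 of 14 cells, and 5.79 and 3.93 CPM in mimic, where the difference of 0.46 was -0.16 without 1 ICM-like cell. Padi6 was 1.26 and 4.97 CPM in control and 16.03 and 2.33 CPM in mimic. Of the ICM-like counts 90.2% in control and 55% in mimic came from 1 cell, and the control difference of -1.40 was 1.18 without the TE-like cells of the second run. None of the 3 genes with 20 CPM was called in control, against 22.1% of 7239 genes, though Khdc3 was at 1.01 without 1 TE-like cell and at 1.25 without the TE-like cells of the second run, and 1 of 2, Khdc3, in mimic, against 20.7% of 7475.

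Mimic and control were also compared within each class. Khdc3 was 514 CPM in mimic and 171.3 CPM in control TE-like cells, a log2 change of 1.58, with mimic runs at 288, 381 and 886 CPM and control runs at 124 and 235 CPM. It was 0.96 without the 8 TE-like cells of the last mimic run. Nlrp4f was 14.8 against 37.9 CPM, a change of -1.30, which was under the limit for a call without either of 2 TE-like control cells (-0.35 and -0.97) or without the first mimic run (-0.95). These were the 2 called of the 3 genes with 20 CPM, against 19.9% of 7331 genes, and neither was called with the mean of log2 values over cells. In ICM-like cells Nlrp4f was 24.0 against 72.0 CPM, a change of -1.55, and was the 1 gene of 2 to be called, against 22.6% of 7399 genes. It was -0.58 without the 17 ICM-like cells of the first control run. Khdc3 differed by -0.70 there, and by 0.37 when cells were placed by marker score, so its direction in ICM-like cells depended on how the class was drawn.

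Relatives and partners of the 8 genes were read the same way, against the 20.1% of genes called lower and 30% called higher in control and 18.8% and 29.1% in mimic. Of 17 NLRP paralogs 15 were in the table and 3 reached 20 CPM in control cells. Nlrp4c, a close relative of Nlrp4f, was 9.39 CPM in 8-cell control and 256 CPM in 32-cell control cells, where 38 of 39 cells had a count. In mimic cells it was at 0 and 127 CPM. Nlrp9c had the opposite pattern, with 23.2 and 14.7 CPM at the 8-cell stage and no count in either 32-cell group. Nlrp12 differed by -0.59 between the stages in control. Up to 8.93% of the 50-base windows of Nlrp5 and 7.08% of those of Nlrp4f are shared with other genes' transcripts, mostly a pseudogene and Nlrp4g, which have no rows in the table.

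Of 4 other genes of the KH-domain group, 3 were called lower at the 32-cell stage in control and in mimic cells. Khdc1b was 148.1 CPM in 8-cell control and 3.32 CPM in 32-cell control cells, Khdc1a was 59.6 and 5.85 CPM, and Khdc1c was 62.3 and 9.42 CPM. The pluripotency-associated Dppa5a was 950 and 1615 CPM, a change of 0.76. Khdc3 and Ooep thus stood on the other side of the stage difference from the Khdc1 genes. None of the 4 PADI paralogs reached 20 CPM. Of 5 TLE paralogs Tle4 was called lower in control (191 to 84.4 CPM) and Tle3 higher (12.7 to 35.9 CPM), while in mimic Tle3 was called lower. Of 3 ZBED paralogs Zbed4 was called lower in control (24.3 to 11.0 CPM) and not in mimic.

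Among 7 genes whose proteins are known to bind the complex or the lattices or to depend on them, 5 reached 20 CPM. Uhrf1, a reader of DNA methylation held in the cytoplasm of the egg, was called higher at the 32-cell stage, from 13.0 to 263 CPM in control and from 19.3 to 83.5 CPM in mimic cells. Dppa3, a maternal factor that protects DNA methylation, was called lower in control, from 5725 to 2286 CPM. In mimic cells it went from 5230 to 2977 CPM, a change of -0.81, and was not called. Dnmt1 and Cfl1 differed by 0.74 and 0.66 in control. Of 28 other oocyte transcripts, 5 reached 20 CPM in any group. Of the 3 that did so in control cells, 2 were called lower and 1 higher. In mimic cells 3 did so, and all 3 were called lower. Zp3, a zona pellucida gene, was 66.7 and 0.404 CPM in control, and Bpgm 21.8 and 1.76 CPM. Npm2, a histone chaperone of the egg, was under the limit in control, at 15.4 and 0.545 CPM. The 1 higher gene, Tcl1, was 10.8 and 36.6 CPM and is named for its value. With no limit on the level, the median change was -1.46 over the 28 and -1.91 over the 8 genes of the complex. Omt2b was 15.2 CPM in 8-cell control and 0.0176 CPM in 32-cell control cells, while Ooep was 1.12 and 18.2 CPM.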

How the data were processed

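Per the submitters' processing notes, reads were processed with STAR (version 2.5.1b) and RSEM (version 1.3.0) on mm10 (GRCm38). What the authors deposited are raw RSEM expected counts for each gene in each cell. All were whole numbers. The study's limits of 3000 genes and 10% mitochondrial counts removed 0 cells. Here counts of the 13 mitochondrial genes were left out, and counts were summed over the cells of a group and scaled to CPM. Log2 changes used a pseudocount of 1 and calls a limit of 20 CPM and a change of 1. Cells are not replicates, so no count model was fitted for a test. Cells were clustered with Seurat (version 5.3.0, R version 4.3.3) on alternate genes without the listed ones, from 2000 variable genes at resolution 0.8, raised from 0.6 until at least 2 clusters held 32-cell cells. No doublet caller was run; cells were picked singly with glass capillaries, per the labels. edgeR (version 4.0.16) and DESeq2 (version 1.42.0) gave scaling factors for alternatives. Scripts were tested on simulated data. The genes of the complex and all lists were chosen with earlier results of these data known. Named from each list were up to 4 genes with the largest stage difference in control among those at 20 CPM in any group. The study's methods name an mm10 reference release from 10x Genomics. Transcript lengths, seed sites and shared windows here are from GENCODE M21, and differences between the annotations were not examined. Promoters and the microRNA come from RefSeq.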

Additional observations from a re-analysis of the deposited data

Results flagged for a closer look

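Khdc3 was the 1 gene of the complex whose difference had opposite directions under the same contrast in 2 settings, with at least 20 CPM in both. Between mimic and control it was -0.84 on the log2 scale at the 8-cell stage and 0.87 at the 32-cell stage. Within 32-cell cells the same contrast was 1.58 in the TE-like class and -0.70 in the ICM-like class. Between ICM-like and TE-like cells it was 0.78 in control and -1.496 in mimic. With 1 sample per group none of these differences was tested. The ICM-like value was the one whose direction depended on how cells were placed in a class, and the Xist and Y-linked counts that separate the 32-cell groups move with the treatment.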

How the results depend on the processing

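Counts here are of the 8 genes, at 20 CPM and a log2 change of 1 unless said otherwise. With a limit of 5 CPM the number lower at the 32-cell stage in control was 4 in place of 2, and with no limit 5. The number higher in mimic was 2 in place of 1 under both. For mimic against control at the 8-cell stage the count of 1 became 0 with a pseudocount of 10, with the mean of log2 values over cells, and without the 3 cells under 5000 genes, an alternative added after seeing the data. It became 2 with no limit and with the median over cells, and 3 in cells with Y-linked counts above Xist. It was 1 to 2 when each cell was left out in turn. Tle6 there was 1.31 and became -2.24 in cells with Xist alone, of which the mimic group had 3. At the 32-cell stage the count was 1 to 2 when a run was left out, and 2 in the cells of adjoining numbers, which were also compared after seeing the data. For ICM-like against TE-like cells in control the count of 0 became 1 with the 5 CPM limit, the mean of log2 values and thinning to 500000 counts, 2 with the median over cells and 3 with no limit, and was 0 to 1 when a cell or a run was left out. In mimic the count of 1 became 2 with the 5 CPM limit, no limit and thinning, and 0 when all genes were clustered or when a marker score placed the cells. It was 1 to 2 when a cell and 0 to 2 when a run was left out. For mimic against control in ICM-like cells the count of 1 became 2 with the 5 CPM limit, the mean of log2 values and the median over cells, and 3 with no limit, and was 0 to 1 when a run was left out. In TE-like cells the count of 2 became 1 with a pseudocount of 10 and the median over cells and 0 with the mean of log2 values, and was 1 to 2 when a cell or a run was left out. The cause of these shifts was not tested. TMM and median-of-ratios scaling moved the median of all genes by up to 0.20 (log2) and turned no direction of the 8 genes. No paired analysis was possible because each group is 1 sample and the numbers in the titles name cells.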
